A study of Mus musculus with 2 samples.

Results

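The transcription factors that give dorsal root ganglion (DRG) sensory neurons their identity were examined in RNA-seq data from pooled DRG neurons of mice that had received the adjuvant alum with or without an antigen. The members were chosen by gene symbol, as a list of 10 genes (Pou4f1, Pou4f2, Pou4f3, Isl1, Runx1, Runx3, Tlx3, Shox2, Maf and Etv1), and all 10 were found among the 24411 genes of the data, on 17 of 35034 RefSeq transcripts. Male C57BL/6 mice (C57BL/6J in the study's methods), 6 to 8 weeks old at purchase and wild-type, were injected intraperitoneally with 50% alum in 200 µl of saline on day 0 and day 14, and DRGs were taken 14 days after the second injection. The alum pool (10 mice) received alum alone, and the alum + KLH pool (10 mice) received the same dose of alum plus keyhole limpet hemocyanin (KLH, 100 µg), which is a mollusc protein that serves as a foreign antigen. The title of the control library calls it both naïve and alum alone, and the alum reading was used. Thoracic and lumbar DRGs were enriched for neurons and depleted of B lymphocytes, and 1 library was sequenced per group, so no value has an error between mice and no difference was tested.

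As background, sensory neurons are born from the neural crest and pass through a shared program before they divide into classes. The POU homeodomain factor Pou4f1 (Brn3a) and the LIM homeodomain factor Isl1 are made in nearly all DRG neurons and shut down earlier neurogenic genes. Later factors separate the classes: Runx1 with Tlx3 in small nociceptors, Runx3 and Etv1 in proprioceptors, and Maf and Shox2 in touch neurons. Runx1, Runx3 and Maf also have well known roles in blood cells.

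Expression was measured in TPM, the share of each transcript among all transcripts of the library. TPM is corrected for transcript length, can therefore be compared between genes, and was summed over the transcripts of a gene. A gene was called detected above 3 TPM, the limit the study used. Of the 10 factors, 7 were above 3 TPM in both pools, while Runx3, Tlx3 and Pou4f3 were below it in both. Of all 24411 genes, 11454 were above 3 TPM in the alum pool and 11302 in the alum + KLH pool. The order of levels was the same in the 2 pools, with Pou4f1 highest, followed by Etv1, Isl1, Runx1, Shox2, Maf, Pou4f2, Runx3, Tlx3 and Pou4f3. Between neighbours in this order, the values of the 2 pools overlapped for Tlx3 and Pou4f3 only.

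**Figure D1:**
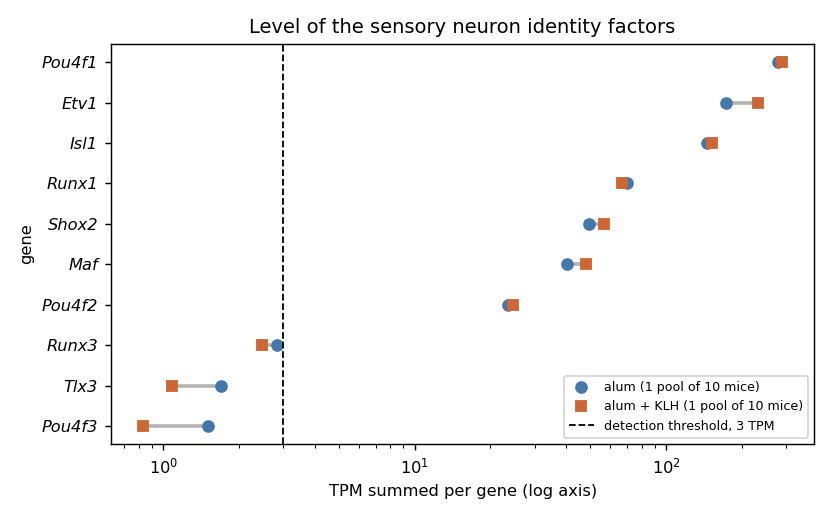
TPM summed per gene (log axis) for the 10 factors, with the alum pool as circles and the alum + KLH pool as squares, 1 library of 10 mice each and no error bars. The dashed line marks 3 TPM, and 7 genes lie to its right in both pools.

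To compare the pools, 1 TPM was added to each level and the log2 of alum + KLH over alum was taken, which understates the change of low genes. As a yardstick, the SD of this ratio was computed over the 500 genes nearest in level (the neighbour SD). This SD describes how far similar genes lay apart in these libraries and is no measure of variation between mice. None of the 7 detected factors was at least 2-fold apart, against 1.64% of the 11648 genes above 3 TPM in at least 1 pool (191 genes). The ratio was above 0 for 6 of the 7 and for 43.6% of all these genes. The median ratio was 0.072 for the 7 factors and -0.020 for all genes above 3 TPM. With the pools scaled to the housekeeping gene Hprt, the median of all these genes moved to -0.10 and the share above 0 to 21%. The ratios of Pou4f1, Pou4f2 and Isl1 were then between -0.021 and -0.012, and Etv1, Maf and Shox2 were the 3 of the 7 above 0. With the pools scaled to a common median ratio, 6 of the 7 factors and 50.2% of all genes were above 0.

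**Figure D2:**
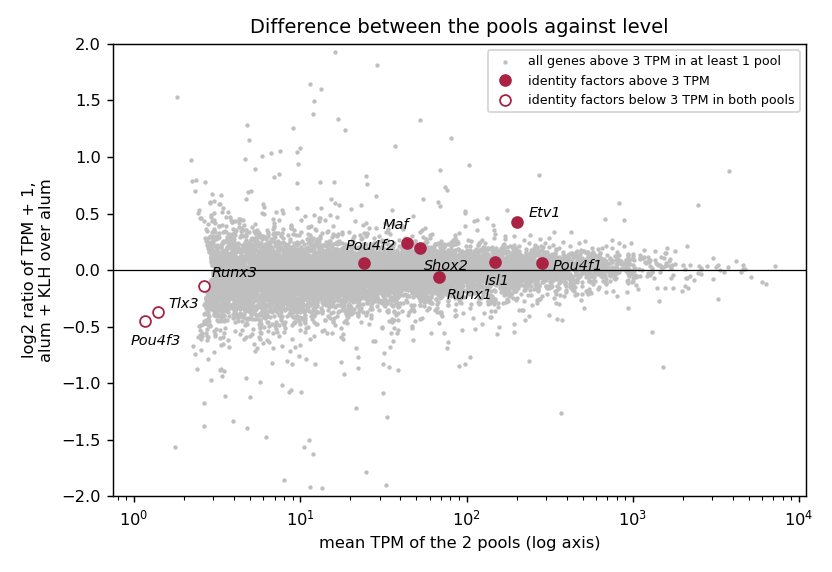
Log2 ratio of TPM + 1 in alum + KLH over alum against the mean TPM of the 2 pools (log axis), with all genes above 3 TPM in at least 1 pool in grey, detected factors as filled circles and undetected ones as open circles. Etv1 lies highest among the factors at 0.42, and 147 grey genes fall beyond the plotted range of -2 to 2.

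The POU4 factors bind DNA through a POU-specific domain and a homeodomain. Pou4f1, the general sensory factor of the family (chromosome 14, 104461676 to 104467999 of GRCm38, minus strand), was at 278.0 TPM in the alum pool and 290.5 TPM in the alum + KLH pool. Only about 3% of genes were higher (3.04% and 2.89%). The log2 ratio was 0.063 beside a neighbour SD of 0.19, and 52.2% of the 500 genes of similar level lay at least as far apart.
Pou4f2 (Brn3b), better known for retinal ganglion cells (chromosome 8, 78433010 to 78436645, minus strand), was at 23.4 and 24.6 TPM, or 8.43% and 8.46% of the Pou4f1 level. The ratio of the 2 genes was therefore nearly equal in the pools, and the log2 ratio of Pou4f2 was 0.066 (neighbour SD 0.17). Pou4f3 (Brn3c), which is required in the hair cells of the inner ear, was at 1.498 and 0.827 TPM, below the limit of detection in both. Its log2 ratio of -0.45 lay within a neighbour SD of 0.47. Of the 11 other POU genes listed, 2 were above 3 TPM. The POU4 genes resemble each other in sequence, and kallisto, the program the authors used, assigns reads by 31-base words. Of the 4415 words of the Pou4f1 model in the GENCODE annotation, 84 (1.90%) also occurred in other genes, 61 of them in Pou4f2. Of the 3174 words of Pou4f2, 66 (2.08%) occurred in other genes.

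Isl1, which acts together with Pou4f1 in newly formed sensory neurons and lies on chromosome 13 (116298281 to 116309689 of GRCm38, minus strand), was at 145.2 TPM in the alum pool and 152.7 TPM in the alum + KLH pool. Its log2 ratio of 0.072 was below the neighbour SD of 0.16. Isl1 stood at 52.2% and 52.6% of the Pou4f1 level. Both general factors thus kept nearly the same proportion to each other in the 2 libraries, a comparison that does not depend on how the libraries were scaled. The related Isl2, the only other LIM homeodomain gene of 11 listed that was above 3 TPM, was lower in alum + KLH (62.3 and 46.1 TPM, log2 ratio -0.43, neighbour SD 0.12). The proportion of Isl1 to Isl2 was 2.33 in the alum pool and 3.32 in the alum + KLH pool.

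Runx1, a runt-domain factor needed for nonpeptidergic nociceptors, has 2 start regions that lie 128745 bases apart in RefSeq on chromosome 16 (GRCm38, minus strand), a distal one known for its use in definitive blood cells and a proximal one. Runx3, its relative in proprioceptors, is likewise transcribed from a distal and a proximal region. The promoter windows of RefSeq (build GRCm38.p6, 250 bases before the start site and 50 after it) are shown for both Runx1 starts, since the transcripts of each were measured, and for the distal Runx3 start, which shares a stretch with Runx1. Capitals mark the RUNX-binding core ACCACA, searched on both strands.
Runx1 distal, chr16:92826025-92826324, minus strand: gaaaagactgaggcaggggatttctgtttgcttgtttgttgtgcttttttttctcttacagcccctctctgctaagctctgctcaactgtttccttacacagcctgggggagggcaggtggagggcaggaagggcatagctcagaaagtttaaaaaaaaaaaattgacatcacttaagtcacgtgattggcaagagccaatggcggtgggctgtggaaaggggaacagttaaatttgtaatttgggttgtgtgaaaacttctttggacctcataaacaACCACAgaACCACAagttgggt
Runx1 proximal, chr16:92697280-92697579, minus strand: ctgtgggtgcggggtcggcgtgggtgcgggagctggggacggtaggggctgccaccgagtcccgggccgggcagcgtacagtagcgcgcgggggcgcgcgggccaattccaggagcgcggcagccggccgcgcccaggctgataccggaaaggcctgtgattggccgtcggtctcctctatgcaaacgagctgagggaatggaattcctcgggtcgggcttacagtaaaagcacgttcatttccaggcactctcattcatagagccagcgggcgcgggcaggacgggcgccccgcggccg
Runx3 distal, chr4:135120395-135120694, plus strand: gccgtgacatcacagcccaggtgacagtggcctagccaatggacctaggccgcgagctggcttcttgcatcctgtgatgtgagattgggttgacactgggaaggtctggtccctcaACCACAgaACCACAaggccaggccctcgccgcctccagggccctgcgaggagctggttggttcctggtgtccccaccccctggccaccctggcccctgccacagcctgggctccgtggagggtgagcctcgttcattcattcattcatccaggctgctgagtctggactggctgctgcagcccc
The longest run that the distal windows of Runx1 and Runx3 had in common was 18 bases and held 2 of these cores: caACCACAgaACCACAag. It lay 27 to 44 bases after the start site in Runx1 and at positions -136 to -119, before the start site, in Runx3. This run occurred in 4 of 32817 promoter windows of the mouse, those of Runx1, Runx2, Runx3 and Gm16225, a noncoding gene that starts beside Runx3. A single core was common, in 16.8% of windows, and 2 or more were found in 1.81%. The proximal Runx1 window held none. It was rich in G and C (69% with 35 CpG dinucleotides) where the distal window was not (45% with 2 CpG dinucleotides). These matches describe the sequence and do not show that a factor was bound.

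Summed over 4 transcripts, Runx1 was at 70.1 TPM in the alum pool and 67.0 TPM in the alum + KLH pool, with a log2 ratio of -0.064 (neighbour SD 0.15). Most of it lay on NM_009821, which GENCODE pairs with a model that starts at the proximal region and encodes 387 amino acids. This transcript was at 57.4 and 53.3 TPM, or 81.9% and 79.6% of the gene. In both pools this transcript thus carried about 4 of every 5 Runx1 transcripts.
NM_001111022 and NM_001111021, both paired with a model from the distal start, together made up 13.5% and 17.5% of the gene (9.47 and 11.7 TPM). NM_001111022 held nearly all of this share, at 9.21 and 11.5 TPM. NM_001111023, whose model begins 130024 bases after the distal one, was at 3.21 and 1.96 TPM. No 31-base word of this last model was absent from the other Runx1 models, against 43.2% of the distal model and 26.2% of the proximal one. In addition, 76 words of each Runx1 model also occurred in the antisense gene Gm26626, which was not analysed here. The value of NM_001111023 therefore rested on how the program shared out common reads. The distal model differs from the proximal one of NM_009821 in more than its first exons. It holds an exon at 181.804 to 181.995 kb from the distal start that the model of NM_009821 lacks. The model of NM_001111023 also holds this exon and encodes 451 amino acids. The last exon of the distal model runs to 224.7 kb, where that of the NM_009821 model ends at 222.5 kb. The share of the distal model is therefore not a measure of the distal start alone. GENCODE links one and the same distal model to 2 RefSeq transcripts, so the pairing of each single transcript with a start site is less certain than that of the sum.

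**Figure D3:**
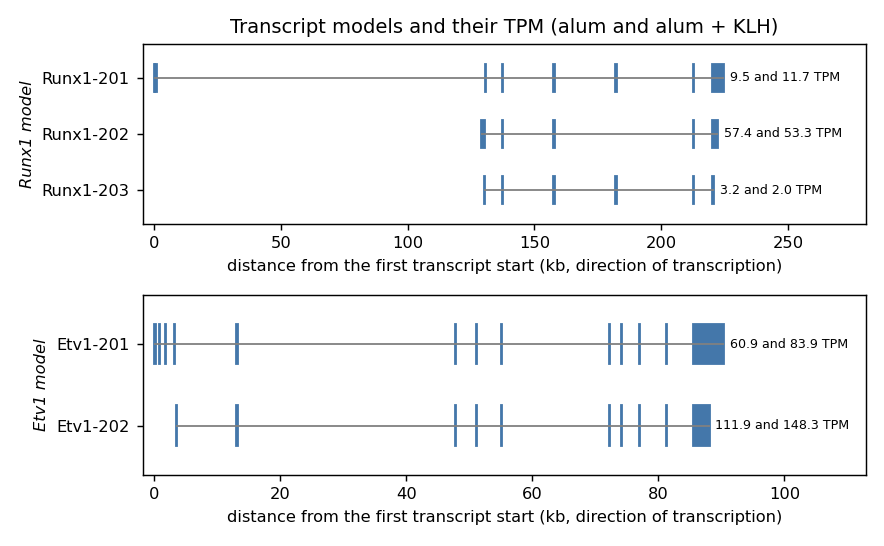
Exons (boxes) of the annotated Runx1 and Etv1 models against the distance in kb from the first transcript start, with the TPM in alum and alum + KLH at the right. The proximal Runx1 model, starting 128.8 kb after the distal one, carries 57.4 and 53.3 TPM.

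Since Runx1 is also a gene of blood cells, leukocyte markers were read beside it. Of 9 macrophage markers 1 was above 3 TPM in each pool (Lyz2, 3.90 and 3.86 TPM), and their sum was 10.1 and 9.79 TPM, with Csf1r at 0.11 and 0.17 TPM. The 6 T cell markers summed to 4.98 and 4.92 TPM, of which Cd3d alone passed 3 TPM, in the alum + KLH pool (2.97 and 3.13 TPM). The 5 B cell markers summed to 0.75 and 0.23 TPM, with Cd79b listed at 0 in both pools. The part of such cells in the Runx1 level was not tested.

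Runx proteins act with the partner Cbfb, which steadies their hold on DNA. Cbfb was far more abundant than Runx1, at 677.5 and 812.4 TPM, with a log2 ratio of 0.26 (neighbour SD 0.16), 9.67 and 12.1 times the Runx1 level. It was the highest of the 9 RUNX partners listed, 7 of which were above 3 TPM in both pools. Runx3 was at 2.83 TPM in the alum pool and 2.48 TPM in the alum + KLH pool, just under the limit of detection, and its log2 ratio of -0.14 was well within a neighbour SD of 0.68. Runx1 was 24.8 and 27.0 times as high as Runx3. Runx2, a bone factor that was named after its value was seen, was at 8.65 and 8.53 TPM and thus above Runx3.
Tlx3, a homeobox factor that works with Runx1 in nociceptors (chromosome 11, 33200752 to 33203589, minus strand), was at 1.69 and 1.08 TPM. It was below 3 TPM in both pools, and its log2 ratio was -0.37 beside a neighbour SD of 0.74. Its relative Tlx2 passed the limit at 6.58 and 4.62 TPM (log2 ratio -0.43, neighbour SD 0.23). Of the PBX and MEIS proteins that can pair with TLX factors, all 5 listed were above 3 TPM, and Pbx2 was the highest at 30.1 and 27.1 TPM.

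Etv1 (Er81), an ETS factor of proprioceptors that also occurs in other DRG neurons, had the largest difference of the 10 in TPM and the largest ratio of the 7 detected factors, with 172.9 TPM in the alum pool and 232.2 TPM in the alum + KLH pool. This was 1.34-fold higher, with a log2 ratio of 0.42 against a neighbour SD of 0.21, and 1.4% of the 500 genes of similar level lay as far apart in either direction. Relative to Pou4f1 in the same library, Etv1 stood at 62.2% in alum and 79.9% in alum + KLH. The log2 ratio was between 0.34 and 0.45 under each pseudocount, scaling and transcript choice tried. With 1 library per group it is not known whether another pair of pools would show the same.
Etv1 has transcripts from 2 neighbouring starts on chromosome 12 (plus strand), and both RefSeq windows are shown because both transcripts were measured. Capitals again mark the RUNX core, here on the opposite strand.
Etv1 first start, chr12:38779832-38780131, plus strand: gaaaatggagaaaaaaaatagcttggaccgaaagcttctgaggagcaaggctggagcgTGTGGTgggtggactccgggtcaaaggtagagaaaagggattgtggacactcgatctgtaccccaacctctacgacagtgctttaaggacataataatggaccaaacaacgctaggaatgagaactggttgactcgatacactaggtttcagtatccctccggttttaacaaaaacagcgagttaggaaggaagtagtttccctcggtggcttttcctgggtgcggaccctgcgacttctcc
Etv1 second start, chr12:38783461-38783760, plus strand: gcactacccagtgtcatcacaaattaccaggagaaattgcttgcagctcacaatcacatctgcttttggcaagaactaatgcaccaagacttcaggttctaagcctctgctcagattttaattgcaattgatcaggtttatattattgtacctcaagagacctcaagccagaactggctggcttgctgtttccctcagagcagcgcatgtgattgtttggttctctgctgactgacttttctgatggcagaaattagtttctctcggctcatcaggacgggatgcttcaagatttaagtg
The first window held 12 CpG dinucleotides and the second 3. NM_007960, whose model begins at 38780082 in the first window, was at 60.9 and 83.9 TPM. NM_001163154, whose model begins at 38783509 in the second window, was at 111.9 and 148.3 TPM. Both transcripts were higher in alum + KLH (log2 ratios of 0.46 and 0.40), and the second kept 64.8% and 63.9% of the gene. The difference thus lay on both transcripts in like measure. The model of NM_007960 had 43.5% of its 31-base words to itself and that of NM_001163154 had 7.39%, so the split between them rested mainly on the former. Of the 31-base words of these models, 20.3% and 26.9% also occurred in other genes, most of them in Gm5454, a processed pseudogene of chromosome 13 (103356252 to 103357704), which was not analysed here. Reads from such a copy cannot be told apart from Etv1 over those words.

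**Figure D4:**
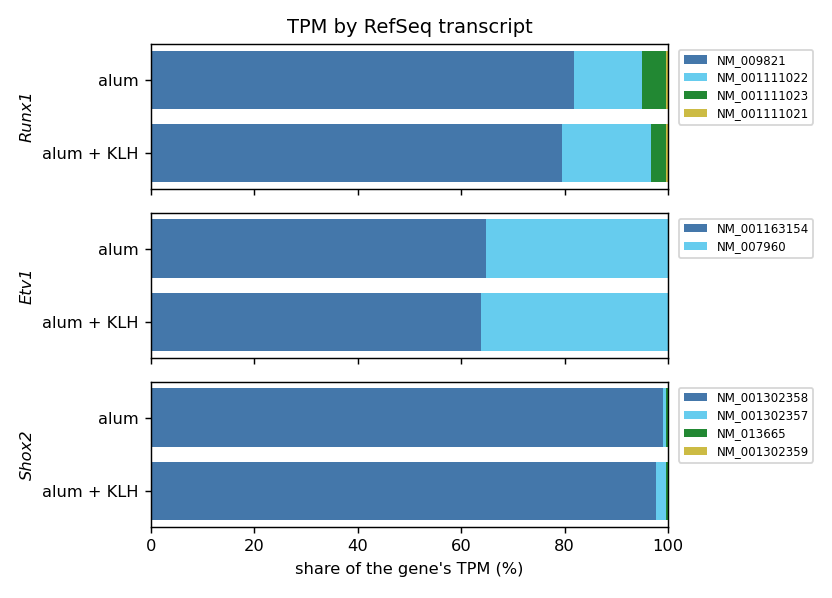
Share of each gene's TPM (percent) on its RefSeq transcripts for Runx1, Etv1 and Shox2, 1 bar per pool. NM_009821 holds 81.9% and 79.6% of Runx1, NM_001163154 64.8% and 63.9% of Etv1, and NM_001302358 99.0% and 97.7% of Shox2.

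Maf (c-Maf), a leucine zipper factor needed for touch receptors (chromosome 8, 115682942 to 115707794, minus strand), was at 40.4 TPM in the alum pool and 47.8 TPM in the alum + KLH pool. The alum + KLH pool was 1.18-fold higher, with a log2 ratio of 0.24 (neighbour SD 0.13), and 4.6% of genes of similar level lay as far apart. Mafa, which lies downstream of Maf in mouse touch neurons, was listed at 0 in both pools (named after its value was seen). Of the words of the Maf model, 6.99% occurred in other genes, mainly the antisense gene Gm15655, which was not analysed here. Maf was the only large MAF factor of those listed above 3 TPM, while the small MAF proteins Maff, Mafg and Mafk were all above it, with Mafg the highest at 59.4 and 65.9 TPM.
Shox2, a homeodomain factor of TrkB-bearing touch neurons (chromosome 3, 66971727 to 66981771, minus strand), was at 49.1 and 56.5 TPM, a log2 ratio of 0.20 against a neighbour SD of 0.12, and 10% of similar genes lay as far apart. Nearly all of it lay on NM_001302358 (48.7 and 55.1 TPM). NM_001302359 was listed at 0 in both pools. The model paired with NM_001302358 is short and only 3.45% of its words were its own, whereas 53.1% of the words of the long Shox2 model occurred in neither of the other Shox2 models, and that model carried 0.47 and 1.31 TPM. Part of the long model overlaps the gene Rsrc1 on the opposite strand (78.7 and 83.8 TPM).

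Etv1, Maf and Shox2 were the 3 factors whose ratio exceeded the neighbour SD, as did 17.1% of all genes above 3 TPM in at least 1 pool. With scaling to Hprt, the ratio of Shox2 (0.11) was below the neighbour SD, and 2 factors and 25.8% of all genes exceeded it. In bulk RNA, fewer cells of a type and less RNA per cell cannot be told apart, and the same holds for more cells or more RNA. Of 10 genes that mark the classes or act under these factors, 10 were above 3 TPM in the alum pool and 9 in the alum + KLH pool, and 4 of the 10 were higher in alum + KLH (2 with scaling to Hprt). Pvalb, the calcium buffer of proprioceptors, was at 80.4 and 114.3 TPM, with the largest ratio of the 10 at 0.50 (neighbour SD 0.14). Among other large-fibre genes, Ntrk3, the neurotrophin-3 receptor, was at 29.1 and 28.0 TPM (log2 ratio -0.052), and Ntrk2, the BDNF receptor, was at 94.9 and 95.8 TPM (log2 ratio 0.013).
Among nociceptor genes, the itch and pain receptor Mrgprd was at 161.0 and 132.2 TPM and the ATP receptor P2rx3 at 285.7 and 253.8 TPM. Both were lower in alum + KLH, with log2 ratios of -0.28 and -0.17. Ret, the receptor for GDNF family ligands that Runx1 helps to maintain, was at 270.6 and 255.5 TPM, the cold channel Trpm8 at 9.01 and 10.1 TPM, and Slc17a6, the vesicular glutamate transporter of most sensory neurons, at 465.0 and 488.2 TPM.

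**Figure D5:**
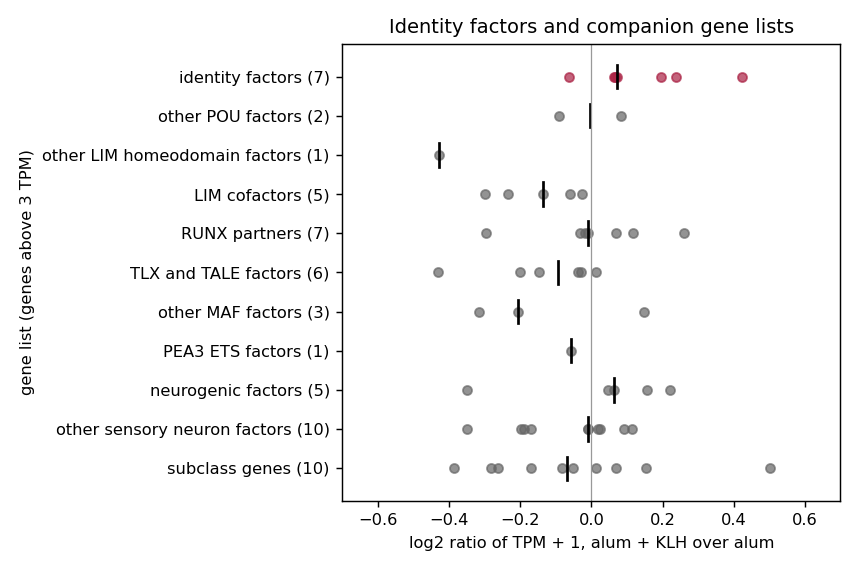
Log2 ratio of TPM + 1 in alum + KLH over alum for the 7 detected factors and for the genes above 3 TPM of each companion list (number in parentheses), 1 point per gene and a bar at the median. No gene of any list is at least 2-fold apart, and the outermost points are Pvalb at 0.50 and Tlx2 at -0.43.

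Beyond these families, 79 further transcription factors and cofactors were read from lists on the POU, LIM, RUNX, TLX, MAF and PEA3 families and on sensory neurogenesis, and 78 of them were analysed here. Of these, 40 were above 3 TPM in at least 1 pool and none was at least 2-fold apart, with a median ratio of -0.031 and 14 of the 40 higher in alum + KLH (18 with a common median ratio and 8 with scaling to Hprt). Besides Isl2, Cbfb and Pbx2, the highest genes of their lists included Pou6f1 (12.1 and 11.3 TPM) of the other POU factors and the LIM-binding cofactor Ldb2 (188.9 and 181.2 TPM). The PEA3 factor Etv5 (62.9 and 60.3 TPM) and Ebf3 (94.5 and 93.9 TPM) of the other sensory factors were also the highest of theirs. All 5 LIM cofactors above 3 TPM were lower in alum + KLH under each of the 3 scalings, where 43.6% (TPM), 50.2% (common median ratio) and 21% (Hprt) of all genes were higher. Of 11 neurogenic factors of development, which Pou4f1 and Isl1 help to shut down, 5 were above 3 TPM, and 4 of these were higher in alum + KLH (2 with scaling to Hprt). Sox11, a factor of immature and regenerating neurons, was at 18.1 and 21.2 TPM (log2 ratio 0.22, neighbour SD 0.18). Etv5 had a log2 ratio of -0.058, and the proportion of Etv1 to Etv5 was 2.75 in the alum pool and 3.85 in the alum + KLH pool.

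The labelled tissue was checked against marker genes. All 7 pan-neuronal markers were above 3 TPM, with Snap25 at 4057 and 4279 TPM. Of 7 markers of autonomic neurons, Dbh and Slc18a3 were listed at 0 in both pools and only Chrna3 passed 3 TPM. Of 6 endothelial and fibroblast markers, 2 were above 3 TPM. Glial RNA was present in both, with the 5 satellite glia markers summing to 1427 and 1312 TPM and the 6 Schwann cell markers to 448.3 and 424.5 TPM. All 5 satellite glia markers were lower in alum + KLH (median log2 ratio -0.046), with Apoe the lowest at -0.52 (neighbour SD 0.13). Of all 11648 genes above 3 TPM in at least 1 pool, 6569 were lower. With a common median ratio, 4 of 5 satellite glia markers and 5795 of all these genes were lower. Of the 7 pan-neuronal markers, 5 were lower in alum + KLH (median log2 ratio -0.088). With scaling to Hprt, 6 of the 7 and 9199 of all 11648 genes were lower. The ratios ran from -0.44 for Rbfox3 (neighbour SD 0.13) to 0.19 for Elavl4 (neighbour SD 0.16). The sum of the 7 markers was 9034 and 9122 TPM with Snap25 as the largest part. The part of cell composition in the ratios of the factors was not tested.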

How the data were processed

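RNA-seq was performed by the authors on 2 pooled libraries, 1 from alum-injected and 1 from alum + KLH-immunized mice. Stranded mRNA libraries were sequenced with paired-end reads, demultiplexed with bcl2fastq, trimmed with cutadapt and quantified with kallisto on the annotated mouse transcriptome (mm10). Tool versions and the strand setting are not given in the sources used here. The authors deposited TPM for each RefSeq transcript, scaled to 1000000 per library. TPM keeps no read numbers, so the depth behind each value is unknown, and no interval or floor was computed. TPM was then summed per gene, 1 TPM was added, and the log2 of alum + KLH over alum was set against its SD over the 500 genes nearest in mean log level.

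Because each group was a single library, no test was possible. Members and lists were chosen with earlier results of these data known. Named genes were all members, the subclass genes, the highest gene of each of 10 lists and the 3 highest and 3 lowest ratios. Listed genes were matched by symbol, 1 listed sensory factor was not analysed here, and some of the genes that this rule names are not reported here. Alternatives covered the pseudocount (0.1 and 0.5 TPM), threshold (1 and 10 TPM), filter, scaling and highest transcript. Positions and models came from GENCODE M21 (GRCm38, the assembly of mm10) and promoters from RefSeq. Promoter windows were read for 8 of the 10 genes, with chromosome 18, where Pou4f3 lies, left out of this reading. Motifs were chosen after the sequences were seen. GENCODE models can differ from the RefSeq sequences that kallisto used. Calculations used Python 3.11.15, numpy 2.4.6 and pandas 2.3.3, plots matplotlib 3.10.9, and the steps were tested on simulated data.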

Additional observations from a re-analysis of the deposited data

How the results depend on the processing

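No paired analysis was possible because each group had 1 library, and for the same reason no replicate could be left out. All 50 alternative log2 ratios of the 10 factors (5 alternatives each) stayed within the neighbour SD of the reported value. The sign changed in 3 of them, those of Pou4f1 (-0.021), Pou4f2 (-0.015) and Isl1 (-0.012) under scaling to Hprt, where the median over the 7 detected factors was -0.012. Scaling to a common median ratio (0.985) raised that median to 0.094. The number of factors at least 2-fold apart was 0 under every alternative tried. At a threshold of 1 TPM, 10 factors in alum and 9 in alum + KLH were above it, and at 10 TPM 7 in each. Taking only the highest transcript lowered Etv1 to 111.9 and 148.3 TPM and Runx1 to 57.4 and 53.3 TPM. Among all genes, the number at least 2-fold apart was 191, fell to 74 of 8486 when only genes above 10 TPM in at least 1 pool were kept, and ranged from 151 to 241 under the others. The value of 151 came from counting genes with identical TPM in both pools once (1.30% of 11601), an alternative chosen after seeing the data. Counting error could not be given for any factor, since TPM keeps no read numbers. The number of factors beyond the neighbour SD was 3, 3 with a common median ratio and 2 with scaling to Hprt, a count chosen after seeing the data.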
